A study of Mus musculus with 6 samples.

Results

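Among the genes whose transcripts gave circular RNAs (circRNAs) in mouse cortex were 25 DNA repair and replication genes, out of 3469 host genes in all. They hosted 67 of the 10273 circRNAs that were listed with a single host gene, and the whole table held 11171 circRNAs. The host genes were chosen by name only. A gene entered if its symbol was a family name (Rad, Fanc, Rfc, Xrcc, Ercc, Msh, Mlh, Brca, Mcm, Orc or Smc) followed by a number or a single letter, or if it was Atm, Atr, Prkdc, Blm, Wrn, Ctc1, Rif1, Rev3l, Nbn, Mre11a, Parp1, Polk, Polq or Tdp1. No measured value entered this name rule, but the rule was set with earlier results of these data known.

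The cortex of male C57BL/6 mice, 6 weeks old, was sequenced with 3 Control and 3 TLE libraries. The TLE (temporal lobe epilepsy) mice had received scopolamine methyl bromide, which limits the effects of pilocarpine outside the brain, and then pilocarpine, which induced Status Epilepticus, and diazepam to stop the seizures, and their cortex was taken 24 h after Status Epilepticus. The Control mice had received saline in place of all 3 drugs, and the TLE mice were those whose seizures passed a behavioural score. Total RNA was depleted of ribosomal RNA, and circRNAs were quantified in SRPBM (a spliced-read unit), the reads across a back-spliced junction relative to the mapped reads of the library.

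A circRNA forms when splicing connects the last base of an exon to the first base of the same or an earlier exon, so the closed circle carries a junction that the linear mRNA lacks. DNA repair genes act on damaged bases, mismatches, crosslinks and broken strands, and replication genes load and move the machinery that copies DNA. Neurons of the adult cortex do not divide, but they still transcribe many of these genes, since transcription and oxidative metabolism damage DNA in cells that have left the cell cycle. A circRNA value reports the circle and not the mRNA or protein of its host gene. As a junction is a single position, SRPBM was compared between genes without division by length.

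The junctions below are shown because they belong to the most abundant circle of each of the 5 most abundant host genes (Rad52, Fancl, Msh3, Rev3l and Smc6) and to the circles of Ctc1 and Rfc1 that were past the fold threshold. A second junction of Rad52 was added after its values had been seen. Each line gives the last 15 bases before the junction in lower case and the first 15 bases after it in capitals, 5′ to 3′ on the strand of the host gene, read from GENCODE release M21 transcripts of mouse build GRCm38.
Rad52 mmu_circ_0008447: ttctaggtagcagagCAGTACTTCCAGCCC
Rad52 mmu_circ_0008448: ttctaggtagcagagTACTTCCAGCCCCTC
Fancl mmu_circ_0000707: tcctggacaccacagGGAAGTGACTTTCAC
Msh3 mmu_circ_0002156: agtacgagtttatcaTTTATGATTGAAATA
Rev3l mmu_circ_0000189: agagaatttgggaaaAATCAGTTTGCGGCA
Smc6 mmu_circ_0001255: ctatcggccctttagATCTGATGGCCAAAA
Ctc1 mmu_circ_0000944: ttccagccagcccagCTCCGAGATGTTCAT
Rfc1 mmu_circ_0008214: gctgctgaggctgagCTGGAGAGGCAGTTG

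In these 8 junctions, the Rad52 circle mmu_circ_0008447 lies at chr6:119920110-119921028 on the plus strand and joins exon 11 back to exon 10. The second Rad52 circle, mmu_circ_0008448, has the same end and starts 3 bases later, at chr6:119920113-119921028, so its capitals begin after the CAG of the first. The Fancl circle (chr11:26397746-26434500, plus strand) spans exons 2 to 7, the Msh3 circle (chr13:92249827-92265991, minus strand) exons 16 to 19, and the Rev3l circle (chr10:39832518-39846913, plus strand) exons 16 to 23. The Smc6 circle (chr12:11271729-11290891, plus strand) spans exons 2 to 14. The Ctc1 circle (chr11:69027254-69028064, plus strand) spans exons 8 to 10, and the Rfc1 circle (chr5:65284849-65297476, minus strand) exons 7 to 12. All of these exons are coding, except that exon 2 of Smc6 also holds the start codon and 5′ UTR. Only the ends of a circle were listed, so the exons and nucleotides between them, here and below, are taken from an annotated transcript.

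The libraries held between 32504 and 56516 junction reads, taking 1 step of the SRPBM values (8.55 to 10.3 SRPBM) as 1 read. The floor was set at 3 reads, between 25.6 and 31.0 SRPBM, and covers counting error only. The lowest count listed for a circle was 2 reads, so a circle listed at 0 may have had fewer than 2 reads. The 25 host genes together had 840 reads, with a median of 14 reads per gene over all 6 libraries, so most single values rest on a few reads. As a check of the tissue, 4 of 6 neuronal marker genes hosted circRNAs, with summed values between 2324 and 2836 SRPBM in Control and between 3016 and 3866 SRPBM in TLE. These sums did not overlap between the groups. Of the 4 genes, only Rims2 was higher in TLE without overlap (1795 to 2119 SRPBM in Control, 2427 to 3191 SRPBM in TLE). Syt1 and Grin2b overlapped, and Rbfox3 was listed in Control only (0, 18.6 and 34.5 SRPBM). Over all host genes tested below, 10.7% lay above Control without overlap. The part of the neuronal sums in the results for the repair genes was not tested. Of 5 astrocyte markers only Slc1a2 was a host (0 to 34.6 SRPBM), and the 5 oligodendrocyte, 6 microglia and myeloid, 5 endothelium and 6 proliferating cell markers hosted none. A marker without circles says nothing about its mRNA, so these lists do not show which cells were present.

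Of 78 annotated protein-coding genes with a matching name, 25 (32.1%) were hosts, compared with 3380 of 21860 other protein-coding genes (15.5%). These 2 sets are unlike in size. The 78 genes had a median length of 38784 bases and a median of 17 exons, against 17366.5 bases and 7 exons for the others. Whether the shares differ at equal length or exon number was not tested. The hosts among the 78 were longer, with a median gene length of 67470 bases against 29508 bases for the 53 that hosted no listed circle. Other host genes in the table had a median of 82201.5 bases. By family, the Xrcc genes hosted circles in 3 of 6 cases, Rad in 3 of 7, Fanc in 3 of 9, Orc in 2 of 6, Smc in 2 of 6 and Ercc in 2 of 7. Mlh had 1 host of 2, Rfc 1 of 5 and Mcm 1 of 9. Neither Brca1 nor Brca2 was a host, and 5 of the 14 genes named singly were (Atr, Prkdc, Wrn, Ctc1 and Rev3l). Among the 6 replicative helicase subunits Mcm2 to Mcm7 none was a host. The only Mcm host was Mcm9, a helicase that works with Mcm8 in homologous recombination. The name Smcp, which fits the pattern but belongs to a sperm protein, is among the 78 and was not a host.

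Signal was concentrated in a pair of genes. Rad52, which anneals single DNA strands in recombination, had a mean of 370.0 SRPBM and ranked 183 of 3469 host genes. Fancl, the ubiquitin ligase subunit of the Fanconi anaemia core complex, had a mean of 249.6 SRPBM and ranked 287. Together they made up 49.3% of the mean signal of the 25 genes. Each of the other 23 host genes had a mean under 100 SRPBM, from Msh3 (71.9 SRPBM) down to Orc2 (4.38 SRPBM). The median over the 25 genes was 20.2 SRPBM, close to the 22.3 SRPBM of the other 3444 host genes.

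**Figure D1:**
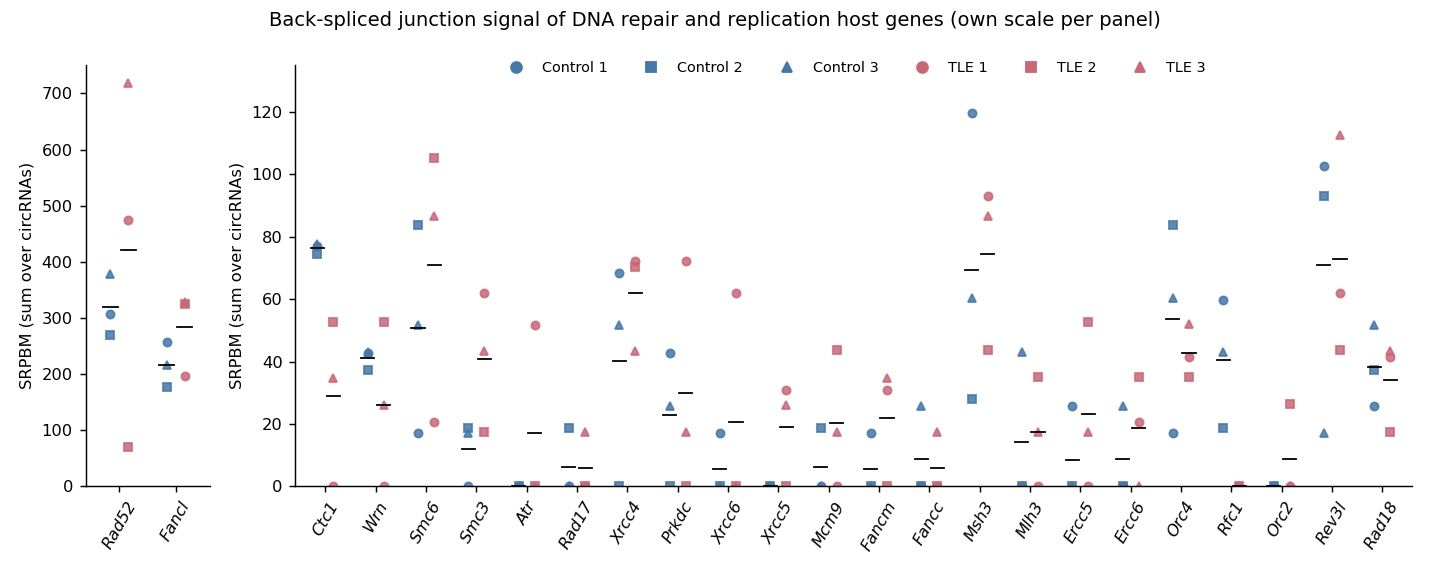
Summed SRPBM (y axis, linear, one scale per panel) of the host genes described here (x axis, grouped by role in the right panel) in each library, with Control in blue, TLE in red, a symbol per replicate and a black line at each group mean. Rad52 and Fancl stand far above the rest, TLE replicate 2 is the low Rad52 value at 70.1 SRPBM, and the 3 Rfc1 values in TLE are at 0.

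The summed signal of the 25 host genes was 1126 ± 146 SRPBM in Control and 1389 ± 325 SRPBM in TLE (SD, n = 3 each). Control libraries lay between 957.6 and 1223 SRPBM and TLE libraries between 1096 and 1739 SRPBM, so the groups overlapped. Without Rad52 the sums were 807.0 ± 105 SRPBM and 968.1 ± 95.9 SRPBM. As a share of all circRNA signal, the 25 genes held 0.323% ± 0.0293 in Control and 0.340% ± 0.0659 in TLE. In these bulk libraries, fewer cells of a type and less RNA per cell cannot be told apart. The number of their circles detected was 25, 16 and 25 in Control replicates 1 to 3 and 23, 27 and 29 in TLE. With the reads of each library thinned to 32504, these numbers were 21, 16 and 23 in Control and 23, 21 and 19 in TLE.

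TLE was compared with Control by limma after 17.1 SRPBM, the lowest nonzero value, had been added and log2 taken, over the 2157 host genes that were above 0 in at least 3 of 6 libraries. A gene was called when its log2 fold change was 1.5 or more, or -1.5 or less, and its unadjusted p was under 0.05. Of the 25 host genes, 18 were tested, and 1 of them, Rfc1, was called lower while 0 were called higher. Over all host genes tested, 0.371% were called lower and 1.53% higher. At an unadjusted p under 0.05 alone, the counts were again 1 lower and 0 higher, against 0.881% and 5.29% of all host genes. With Benjamini-Hochberg adjustment in limma, 0 of the 18 and 0% of all host genes passed an adjusted p of 0.05, and the lowest value among the 18 was 0.728. The median log2 fold change of the 18 genes was 0.22, and that of all host genes tested was 0.20, with 9 of the 18 above this median and 9 below it.

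After rescaling of the libraries to equal total SRPBM, the median of all host genes tested moved from 0.20 to 0.02, and that of the 18 genes to 0.08. Complete separation of the groups was seen for 2 of the 18 genes, Rfc1 and Ctc1, both with TLE below Control. Over all host genes tested, TLE lay below Control without overlap in 1.95% and above it in 10.7%, and 0 of the 18 genes were of the latter kind. The 18 genes entered only where they were above 0 in 3 libraries, which Rfc1 met through Control alone. The log2 scale with an added 17.1 understates changes of genes with few reads.

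**Figure D2:**
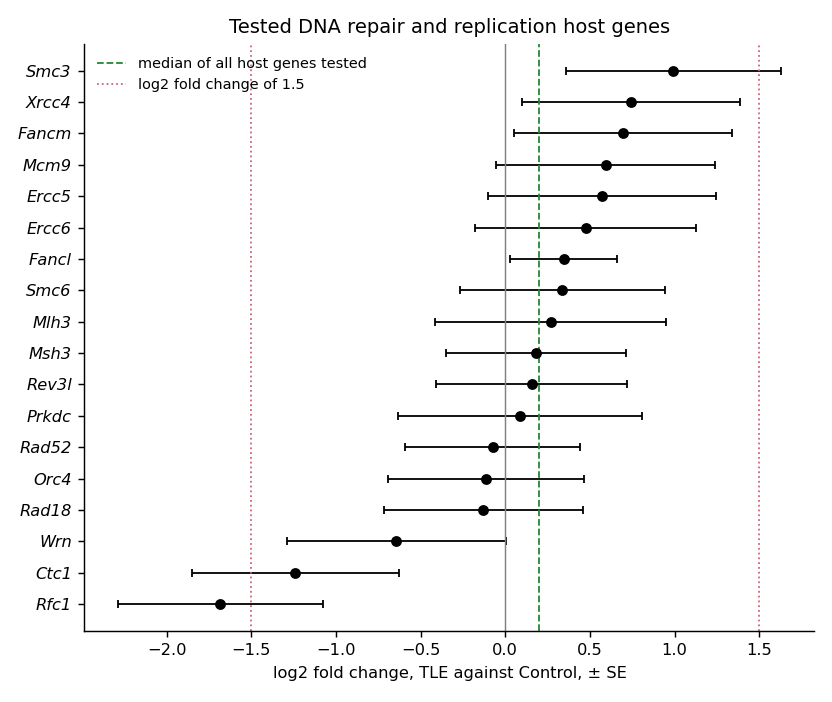
Log2 fold change of TLE against Control on the log2(SRPBM + 17.1) scale (x axis) for the 18 tested host genes (y axis), as points with bars of 1 standard error. The dashed line is the median of all 2157 host genes tested (0.20), the dotted lines mark 1.5 in either direction, and Rfc1 is the gene past a dotted line.

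Of the 3 replication genes, Rfc1 had the lowest log2 fold change and Orc4 the highest mean. Rfc1 is the large subunit of the clamp loader, which places the sliding clamp PCNA on DNA for the polymerases. Its only listed circle, mmu_circ_0008214 (6 of 25 exons, 840 nucleotides), had 59.8, 18.6 and 43.1 SRPBM in Control replicates 1, 2 and 3, with all 3 TLE libraries at 0. These values correspond to 7, 2 and 5 reads in Control. The listed values of the groups did not overlap, but Control replicate 2 was at the lowest count listed. Rfc1 had a log2 fold change of -1.68 with a standard error of 0.61 (limma, unadjusted p = 0.0122 and adjusted p = 0.728), the 3rd lowest fold change of the 2157 host genes. Its Control mean of 40.5 SRPBM (SD 20.7) was 1.46 times the mean TLE floor of 3 reads (27.7 SRPBM). That ratio leaves out the spread of the Control libraries. Without Control replicate 1 the log2 fold change was -1.44 and Rfc1 was no longer called (unadjusted p = 0.0531 in limma).

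Orc4 and Orc2 encode subunits of the origin recognition complex, which marks where replication starts. Orc4 was at 17.1, 83.7 and 60.3 SRPBM in Control against 41.3, 35.1 and 51.9 SRPBM in TLE. The TLE values lay inside the Control range, with a log2 fold change of -0.11 (standard error 0.58). Orc2 was not tested, as it was seen in 1 library only, TLE replicate 2, at 26.3 SRPBM. The 3 replication genes summed to 76.9, 102 and 103 SRPBM in Control and 41.3, 61.4 and 51.9 SRPBM in TLE. This difference restates that of Rfc1, which entered the comparison through Control alone. Without Rfc1 the Control sums were the Orc4 values above, and the TLE sums lay inside their range.

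Ctc1 is a subunit of the CST complex, which helps to fill in the second strand at telomeres. It was at 76.9, 74.4 and 77.5 SRPBM in Control against 0, 52.6 and 34.6 SRPBM in TLE. All TLE libraries were below all Control libraries, and the log2 fold change was -1.24 with a standard error of 0.61 (unadjusted p = 0.0564 and adjusted p = 0.834 in limma). Ctc1 was thus not called in limma. Without TLE replicate 1, the library listed at 0, its log2 fold change was -0.64, and without TLE replicate 2 it was -1.65 and past the threshold (unadjusted p = 0.0278). After rescaling to the same total SRPBM, the log2 fold change was -1.45 (unadjusted p = 0.0247).

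Ctc1 gave 3 circles that share their ends with one another. The circle of exons 8 to 10, mmu_circ_0000944 (612 nucleotides), was at 59.8, 27.9 and 17.2 SRPBM in Control and was listed at 0 in all TLE libraries. It corresponds to 7, 3 and 2 reads in Control, with replicate 3 at the lowest count listed. The circle entered the comparison only through the Control libraries. Its log2 fold change was -1.52 with a standard error of 0.57 (unadjusted p = 0.0169 and adjusted p = 0.838 in limma). The Control mean of 35.0 SRPBM (SD 22.2) was 1.26 times the mean TLE floor of 27.7 SRPBM, a ratio that leaves out the Control spread. Without Control replicate 1, the log2 fold change was -1.20 with an unadjusted p of 0.0508 in limma, so that it was no longer called. The circle of exons 6 and 7, mmu_circ_0000942, was at 17.1, 46.5 and 43.1 SRPBM in Control against 0, 52.6 and 34.6 SRPBM in TLE, so its groups overlapped (log2 fold change -0.36, standard error 0.66). The circle that spans both, exons 6 to 10, was seen in Control replicate 3 only, with 2 reads. Whether the 2 main circles of Ctc1 differ in their change was not tested.

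**Figure D3:**
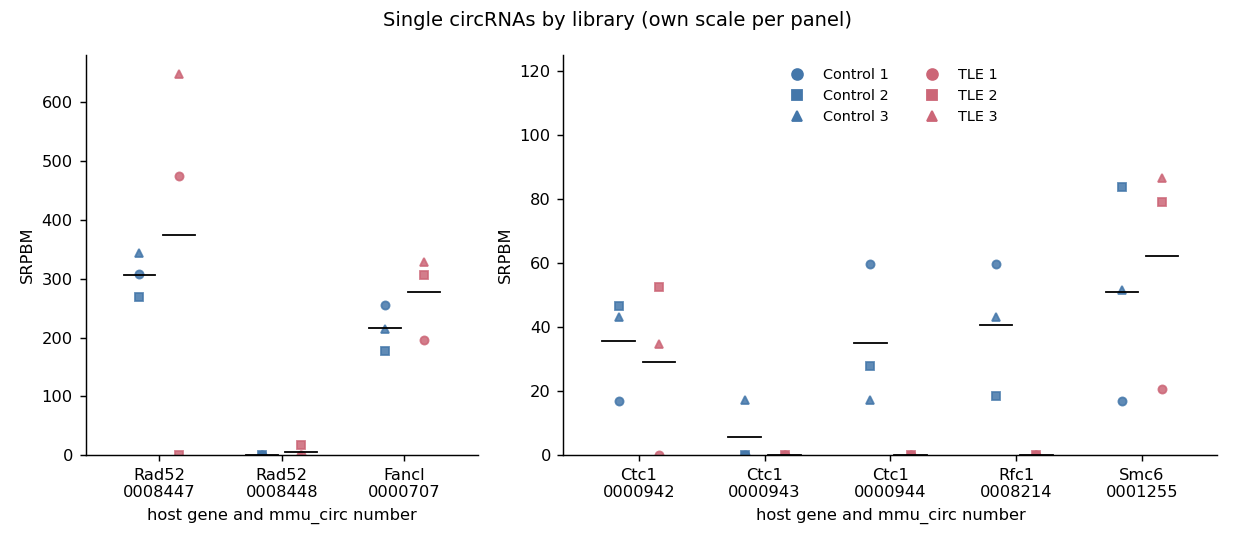
SRPBM (y axis, linear, one scale per panel) of single circRNAs (x axis, host gene and number) in each library, with Control in blue, TLE in red, a symbol per replicate and a black line at each group mean. The Rfc1 circle mmu_circ_0008214 and the Ctc1 circle mmu_circ_0000944 are at 0 in all 3 TLE libraries, while the Rad52 circle mmu_circ_0008447 is at 0 in TLE replicate 2 and above every Control library in the other two.

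Wrn, a RecQ helicase that also has exonuclease activity, was at 42.7, 37.2 and 43.1 SRPBM in Control against 0, 52.6 and 26.0 SRPBM in TLE. The Control libraries lay close together and the TLE libraries on both sides of them, with a log2 fold change of -0.64 (standard error 0.65). All 3 Wrn circles began at exon 2 and ended at exon 8, 19 or 27. Both Ctc1 and Wrn were listed at 0 in TLE replicate 1, the library with the fewest junction reads. Whether the read number of that library bears on these zeros was not tested. Without that library the log2 fold change of Wrn was -0.08.

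Among circles tested singly, the comparison covered 22 of the 67, out of 4271 circRNAs in the table that were nonzero in 3 or more libraries. The circles of Rfc1 and Ctc1 described above were the 2 called lower, and 0 were called higher. Both of them entered the comparison through the Control libraries alone, where they were above 0. Over all circRNAs tested, 0.304% were called lower and 1.26% higher. The same 2 circles were those with an unadjusted p under 0.05, where all circRNAs tested gave 1.08% lower and 4.12% higher. They were also the 2 circles whose groups did not overlap with TLE below Control, against 2.11% of all circRNAs tested, while 0 circles lay above Control without overlap, against 8.94%. An adjusted p under 0.05 was reached by 0 of the 22 circles and 0% of all circRNAs in limma.

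Rad52 had 5 circles, of which mmu_circ_0008447 (exons 10 and 11 of 12, 303 nucleotides) carried 92.2% of the signal. The gene was at 307.6, 269.6 and 379.0 SRPBM in Control against 475.2, 70.1 and 718.2 SRPBM in TLE. TLE replicates 1 and 3 were above all Control libraries and TLE replicate 2 was below them, which left a log2 fold change of -0.07 (standard error 0.52, unadjusted p = 0.886 in limma). Without TLE replicate 2 it was 0.85 with a standard error of 0.31 (unadjusted p = 0.0154 and adjusted p = 0.893 in limma). With it, the TLE spread was 327 SRPBM, near the TLE mean of 421 SRPBM.

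The Rad52 values in TLE replicate 2 turned on a single circle. mmu_circ_0008447 had 36, 29 and 40 reads in Control and 46, 0 and 75 reads in TLE. In TLE replicate 2, where it was listed at 0, the table held 2 reads of mmu_circ_0008448, whose start lies 3 bases further on and which was listed in no other library. The rest of the Rad52 signal there came from mmu_circ_0008445 (exons 2 to 5, 4 reads) and mmu_circ_0008444 (exons 2 and 3, 2 reads). The whole table held 40 pairs of circles with 1 shared end and 3 bases between the other ends. Of these pairs, 8 were never listed in the same library, the Rad52 pair among them. These pairs were counted after the Rad52 values had been seen. Across the whole table, 112 circRNAs had at least 29 reads in each of the other 5 libraries, and 4 of them were listed at 0 in TLE replicate 2. The same count was 2 of 114 for Control replicate 2, 2 of 120 for TLE replicate 1 and 0 for the remaining libraries. Of the 4, 1 was mmu_circ_0008447 itself. Its lowest count in the other libraries set the cutoff of 29, after its values had been seen. Whether reads of this junction were present in TLE replicate 2 but not kept by the authors' filters was not tested.

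Mcm9, the other recombination gene, was at 0, 18.6 and 0 SRPBM in Control against 0, 43.8 and 17.3 SRPBM in TLE. The groups overlapped, with a log2 fold change of 0.59 (standard error 0.65).

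Crosslink repair was represented by Fancl, Fancm and Fancc. Fancl was at 256.4, 176.6 and 215.3 SRPBM in Control against 196.3, 324.4 and 328.8 SRPBM in TLE. TLE replicates 2 and 3 were above all Control libraries and TLE replicate 1 was among them, giving a log2 fold change of 0.34 (standard error 0.32, unadjusted p = 0.291 in limma). The circle of exons 2 to 7, mmu_circ_0000707 (444 nucleotides), made up 98.8% of it and was one of 3 circles seen in all 6 libraries. Fancm, a DNA translocase that recognises stalled forks, was at 17.1, 0 and 0 SRPBM in Control against 31.0, 0 and 34.6 SRPBM in TLE (log2 fold change 0.70, standard error 0.64), with overlap at 0. Fancc, a core complex subunit, was not tested and was seen in 2 libraries, Control replicate 3 (25.8 SRPBM) and TLE replicate 3 (17.3 SRPBM).

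Mismatch repair genes had 11 circles, of which 7 belonged to Msh3. Msh3 takes part in the recognition of larger loops in DNA. Msh3 was at 119.6, 27.9 and 60.3 SRPBM in Control against 93.0, 43.8 and 86.5 SRPBM in TLE. The TLE libraries lay inside the Control range (log2 fold change 0.18, standard error 0.53). The downstream end of 6 of its 7 circles was shared with another of them, and its leading circle, mmu_circ_0002156, held only 32.4% of the signal. Mlh3, a MutL protein, had a log2 fold change of 0.27 (standard error 0.68).

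Translesion synthesis copies past damage that stops the replicative polymerases. Rev3l, the catalytic subunit of polymerase zeta, was at 102.5, 93.0 and 17.2 SRPBM in Control against 62.0, 43.8 and 112.5 SRPBM in TLE. The groups overlapped widely, with a log2 fold change of 0.16 (standard error 0.57) that became -0.03 after rescaling to the same total SRPBM. It had 7 circles, of which 3 started at exon 16 and mmu_circ_0000189 held 59.3% of the signal. Rad18, the ligase that ubiquitinates PCNA at stalled forks, was at 25.6, 37.2 and 51.7 SRPBM in Control against 41.3, 17.5 and 43.3 SRPBM in TLE (log2 fold change -0.13, standard error 0.59), again with overlap.

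Smc genes encode the long coiled-coil ATPases that hold or move chromatin fibres. Smc6, of the SMC5/6 complex, was at 17.1, 83.7 and 51.7 SRPBM in Control against 20.7, 105 and 86.5 SRPBM in TLE. Both groups ranged widely and overlapped, with a log2 fold change of 0.34 (standard error 0.60). Smc3, a core subunit of cohesin, was at 0, 18.6 and 17.2 SRPBM in Control against 62.0, 17.5 and 43.3 SRPBM in TLE. Its log2 fold change of 0.99 was the highest of the 18 genes but was not called (standard error 0.64, unadjusted p = 0.135 in limma), and TLE replicate 2 fell among the Control libraries. Its values rest on 0, 2 and 2 reads in Control and 6, 2 and 5 reads in TLE, over 4 circles.

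End joining rejoins broken ends directly, with the Ku proteins (Xrcc5 and Xrcc6) binding the ends, Prkdc as their kinase partner and Xrcc4 as the cofactor of the ligase. Xrcc4 was at 68.4, 0 and 51.7 SRPBM in Control against 72.3, 70.1 and 43.3 SRPBM in TLE. The groups overlapped, with a log2 fold change of 0.74 (standard error 0.64) that was 0.02 without Control replicate 2, the library listed at 0. Prkdc, the longest of these genes by exon number (86 exons), ranged from 0 to 72.3 SRPBM (log2 fold change 0.09, standard error 0.72). Xrcc5 was listed only in TLE replicates 1 (31.0 SRPBM) and 3 (26.0 SRPBM). Xrcc6 was listed in Control replicate 1 (17.1 SRPBM) and TLE replicate 1 (62.0 SRPBM), and neither Ku gene was tested.

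Nucleotide excision repair was represented by Ercc5, the endonuclease that cuts 3′ of the damage, and Ercc6, which acts where a polymerase has stalled in transcription. Ercc5 was at 25.6, 0 and 0 SRPBM in Control against 0, 52.6 and 17.3 SRPBM in TLE (log2 fold change 0.57, standard error 0.67), with overlap between the groups. Ercc6 ranged from 0 to 35.1 SRPBM with a log2 fold change of 0.47 (standard error 0.65). Among the genes that sense damage, Atr, the kinase of the replication stress response, was seen in TLE replicate 1 only (51.6 SRPBM). Rad17, which loads the checkpoint clamp, was seen in Control replicate 2 (18.6 SRPBM) and TLE replicate 3 (17.3 SRPBM). Neither was tested.

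A wider list of 292 DNA repair and replication genes held 267 genes beyond the 25. Of these 267, 45 were hosts and 26 were tested. At an unadjusted p under 0.05, 1 of the 26 was higher in TLE and 0 were lower, against 5.29% and 0.881% of all host genes tested, and 0 had an adjusted p under 0.05 in limma. TLE lay above Control without overlap in 4 of the 26 and below it in 0, against 10.7% and 1.95% of all host genes tested. The gene past that p was Stag2, a cohesin subunit, which was also past the fold threshold, as were 1.53% of all host genes tested in that direction, at 0, 0 and 43.1 SRPBM in Control and 72.3, 26.3 and 104 SRPBM in TLE (log2 fold change 1.58, standard error 0.68, unadjusted p = 0.0316 in limma). Its groups overlapped, as Control replicate 3 was above TLE replicate 2. The next highest were Smchd1 (log2 fold change 0.90, standard error 0.56), an SMC-like chromatin protein whose TLE libraries were all above the Control ones, and Ube2w (0.85, standard error 0.43), a ubiquitin-conjugating enzyme. The lowest were Nhej1 (-0.92, standard error 0.63), an end-joining factor, Hltf (-0.43, standard error 0.66), a fork-remodelling translocase, and Spidr (-0.43, standard error 0.48), a recombination scaffold. The median over the 26 genes was 0.33, against 0.20 over all host genes tested.

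In structure, the circles of the 25 genes were compared with those of all other host genes. Both ends lay on annotated exon boundaries in 64 of 67 (95.5%, 95% Wilson interval 87.6 to 98.5%), against 90.9% of the other 10206 circles with a single host. The 63 that could be placed on a transcript had a median of 5 exons and 785 nucleotides, against 4 exons and 614 nucleotides for the others. Between 2 and 5 exons lay in 50.8% of them and in 62.0% of the others. The median intron before the circle was 4727 bases long and the median intron after it 3620 bases, against 10328.5 and 8715.5 bases for the others. Only coding exons lay in 76.2% of these circles and in 79.1% of the others. These differences are descriptions, since circles of a gene share its exons and introns and were not tested as replicates.

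**Figure D4:**
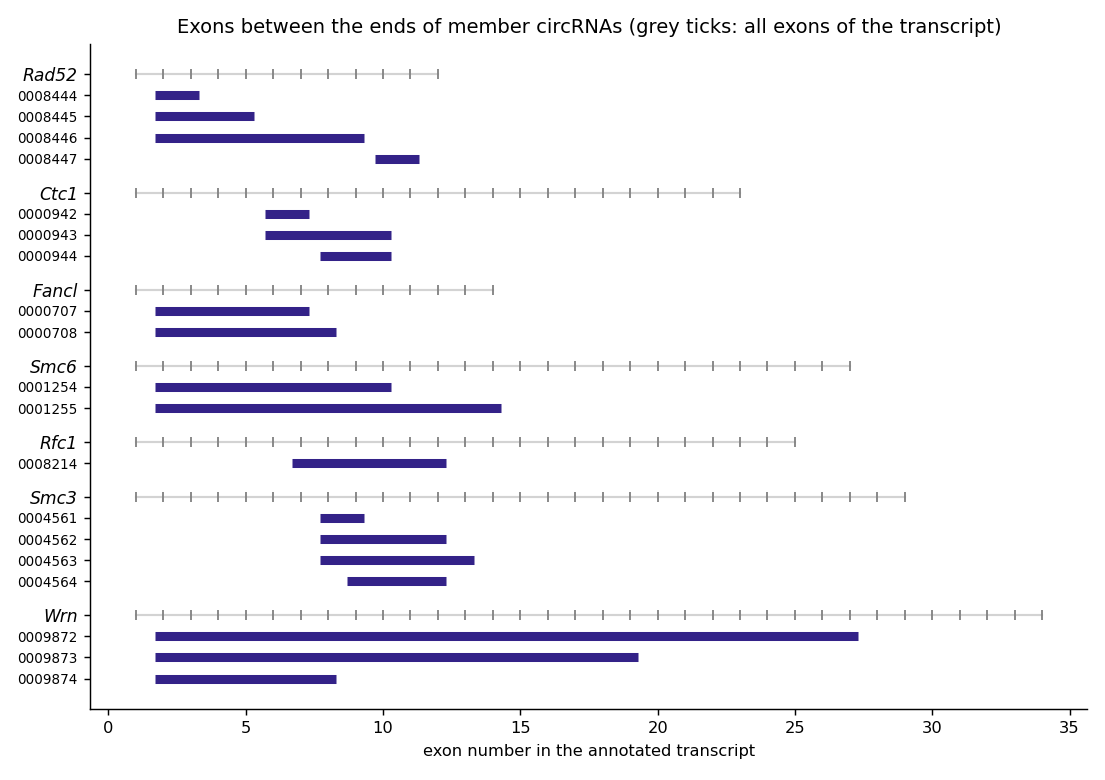
Exons between the ends of member circRNAs (bars, labelled by mmu_circ number) along the exon numbers of the annotated transcript (x axis) for 7 host genes, with grey ticks for all exons of the transcript. The Wrn, Fancl and Smc6 circles share a start at exon 2, while the Rad52 circle mmu_circ_0008447 lies near the 3′ end of its gene.

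Circles of a gene often shared an end. An exact start or end was common to 43 of the 67 circles and another circle of the same gene, and 16 of the 63 placed circles (25.4%) started at exon 2, against 31.0% of the others. All 6 libraries held 3 of the 67 circles (4.48%), those of Fancl (mmu_circ_0000707), Rad18 (mmu_circ_0008392) and Smc6 (mmu_circ_0001255), against 14.6% of the others. A single library held 32 of the 67 (47.8%), against 44.1% of the others, and the median circle had 4 reads against 5.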

How the data were processed

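Cortex libraries of 3 Control and 3 TLE mice were analysed. The authors removed low-quality and ribosomal reads, called circRNAs by CIRI after alignment by BWA-MEM, and deposited a normalized signal, SRPBM, per circRNA. The submitters' processing notes list mm10 and DESeq2. The same table was deposited 6 times and read once. Nothing states whether the threshold's p was adjusted in the study, so the unadjusted p was used.

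SRPBM was summed over circRNAs of a host gene. Values were, within a tolerance of 0.05 steps, whole multiples (100%) of 1 step, taken as 1 junction read for depth, floors and thinning. Groups were compared with limma 3.58.1 in R 4.3.3 (two-sided, with eBayes and a variance trend) on log2(SRPBM + 17.0914), with Benjamini-Hochberg adjustment over all features tested. Replicates are labelled only by number, so p-values measure the spread between these libraries. In libraries simulated with counting error only, a 4-fold change was given to 200 host genes with at least 60 reads. Of these, 199 had an unadjusted p under 0.05 in the right direction in limma. With 10 to 30 reads, 134 of 200 did. No spread between mice was simulated, so these rates can be higher than those for the real libraries. The fold threshold was not applied to them, so they are not rates of the calls made here. Circle ends were placed on GENCODE M21 (GRCm38). Symbols were found for 3466 of 3469 host identifiers.

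The host genes, lists and tests were chosen with earlier results of these data known. Values in every library were given for host genes at an unadjusted p under 0.05, the 5 highest and 5 lowest fold changes, the 5 highest means, those with a called circRNA and those without overlap between groups. Alternatives covered the pseudocount, filter, scaling, variance trend, replicate block, fold threshold, exon boundaries, name rule and each library left out. Python 3.11.15, pandas 2.3.3, scipy 1.17.1 and matplotlib 3.10.9 were used. The values of 1 host gene are not reported here by name, and it is counted in the totals.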

Additional observations from a re-analysis of the deposited data

How the results depend on the processing

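The number of host genes called lower (1, Rfc1) was 0 when only genes with a mean at or above the median were tested, since Rfc1 was then not among them, and it lay between 0 and 2 with each library left out. The number lower at an unadjusted p under 0.05 was 2 (Rfc1 and Ctc1) without a variance trend, without a filter and after rescaling, and between 0 and 2 with each library left out. The number higher at that p lay between 0 and 1, the 1 being Rad52 without TLE replicate 2, and no host gene was called higher in any setting run. Circles called lower lay between 0 and 2, with 0 without Control replicate 1. With a log2 fold change of 1, or with Rad23b and Smc1a added by a wider reading of the names, the counts stayed at 1 and 0. Deviations of libraries with the same replicate number correlated at 0.02, -0.01 and 0.02. These values show no pairing by number but cannot exclude it, since counting error in genes with few reads also lowers such correlations. The replicate block left the log2 fold change of Rfc1 at -1.68, of Ctc1 at -1.24 and the counts called at 1 lower and 0 higher. Fold changes that changed sign with a library left out were those of Mlh3 (-0.10 to 0.87), Msh3 (-0.22 to 0.59), Orc4 (-0.57 to 0.21), Prkdc (-0.54 to 0.65), Rad18 (-0.30 to 0.13), Rad52 (-0.68 to 0.85), its circle mmu_circ_0008447 (-1.82 to 0.83), Rev3l (-0.43 to 0.48) and Smc6 (-0.090 to 0.86), and with rescaling that of Rev3l (-0.028). The log2 ratio of the summed signal (0.30) lay between 0.11 and 0.45 with each library left out and was 0.07 after rescaling. The difference in circles detected (4.33) lay between 1.33 and 6, and was 1 after thinning. The cause of these changes was not tested. With a median of 14 reads per host gene and 3 libraries per group, differences within the standard errors given, and some beyond them, could not be told from 0. Ctc1, at -1.24 with a standard error of 0.61, had an unadjusted p of 0.0564 in limma.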
